A study of Mus musculus with 22 samples.

Results

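Glucose breakdown in maturing eosinophils was followed through 35 genes of glycolysis and the pentose phosphate pathway. They comprise 18 genes of the glycolytic steps down to lactate, 6 genes of regulatory enzymes, 7 genes of the pentose phosphate pathway and 4 genes of side steps. They were picked by gene symbol from a list of the pathway's enzymes, with no measured value in the rule, out of the 24982 gene lines that each of the 22 count tables holds. Earlier results of these data were known when the members were chosen. All 35 were present in every table, and 34 had enough reads to be tested among 12387 genes. The exception was Eno2, a neuronal enolase, with 0 counts in 20 libraries and 0.390 CPM (the count scaled to a common library size, set by the TMM method) in 1 anti-IL5 library and 0.312 CPM in 1 isotype library, both of stage I.

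The libraries come from eosinophils of maturation stages I (earliest), II, III and IV, sorted from the marrow of C57BL6 wild type mice. Anti-IL5 mice received 400 µg of a neutralizing antibody against interleukin 5, the main growth factor of eosinophils, once a day for 3 days. Isotype mice received the same amount of a control antibody on the same days. Every mouse of both arms had been given IL-33, a cytokine that expands eosinophils, at 400 ng into the peritoneal cavity on each of 7 days, with the antibody starting on the last of them, so no group represents marrow without IL-33. Each antibody has 3 libraries at stages I, III and IV and 2 at stage II. The labels do not say whether equal replicate numbers mark the same animal, and p-values measure the spread between these samples. Age is not given in the sources used here.

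Glycolysis splits glucose into pyruvate and yields a small net gain of ATP, and lactate dehydrogenase turns pyruvate into lactate so that the route can keep running. The pentose phosphate pathway branches off at glucose-6-phosphate, where its oxidative arm makes NADPH and its non-oxidative arm exchanges sugars with glycolysis and supplies ribose for nucleotides. In granulocytes, NADPH feeds the oxidase that produces superoxide, and mature granulocytes are known to draw much of their energy from glycolysis. Pyruvate dehydrogenase kinases (the Pdk genes) hold pyruvate back from the mitochondria by switching off pyruvate dehydrogenase.

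Libraries held 7161264 to 14781250 gene counts, and the floor of 3 counts equals 0.222 to 0.411 CPM. The kit names no molecular identifiers, so such floors cover counting error only. Of 12 eosinophil markers, 11 were present and tested, and their summed level was 45144 to 54878 CPM at stage I and 9617 to 10725 CPM at stage IV under anti-IL5, against 44084 to 51280.2 and 11194 to 12614 CPM in isotype libraries. Not all of them fell. At an edgeR adjusted p under 0.05, 4 were higher at stage IV than at stage I in both arms (Ccr3, Il5ra, Siglecf and Alox15). The 6 lower in both arms were Epx, Prg2, Prg3, Ear1, Ear2 and Ear6. The 4 globin genes among the 10 erythroid markers were at 0 in all libraries. Basophil and mast cell markers (9 listed, Mcpt4 and Tpsb2 at 0 throughout) and proliferation markers (6 listed) were present and are given beside the results they touch. These are bulk samples, in which fewer cells of a type and less RNA per cell cannot be told apart.

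Maturation moved most of the pathway, with enzymes going in different directions, as it did most tested genes. Stage IV against stage I, 26 of 34 members were called under anti-IL5 (15 higher, 11 lower) and 27 in isotype libraries (15 higher, 12 lower), at an edgeR adjusted p under 0.05. That is 76.5% and 79.4% of members. The background was 63.5% of all tested genes under anti-IL5 (30.7% higher, 32.8% lower) and 66.2% in isotype libraries (32.3% higher, 33.9% lower). These comparisons share no library. Both called 13 members higher (38.2%, against 27.7% of all genes), both called 11 lower (32.4%, against 28.8%), and no member was called in opposite directions, against 0.0969% of all genes. The median log2 fold change of the members was 0.21 under anti-IL5 and 0.44 in isotype libraries, against -0.06 and -0.04 over all tested genes. The split depends on the scaling. With gene-count totals in place of TMM (trimmed mean of M values) scaling, 8 members were higher and 15 lower under anti-IL5, 9 were higher and 16 lower in isotype libraries, and the medians were -0.20 and 0.02, against -0.48 and -0.46 over all tested genes. Leaving out 1 library ended some of these calls. Under anti-IL5 they were those of Pfkp (highest edgeR adjusted p = 0.108; stage I replicate 1 or 2, stage IV replicate 2 or 3), Aldoc (0.151; I 2 or 3, IV 1 or 3), Tkt (0.0833; I 1, 2 or 3, IV 2 or 3), Bpgm (0.171; I 2, IV 3), Ldha (0.212; I 1, 2 or 3, IV 1) and Pfkfb4 (0.0582; I 2). In isotype libraries they were those of Tkt (highest edgeR adjusted p = 0.164; I 2 or 3, IV 1 or 3), Tpi1 (0.097; I 2 or 3, IV 1 or 2) and Pdha1 (0.0634; I 3). The members called higher in both arms were Hk1, Hk2, Pfkl, Pfkp, Aldoa, Aldoc, Pkm, Pfkfb3, Pdk2, Pgd, Taldo1, Pgm1 and Pdha1, and those called lower in both were Hk3, Pfkm, Pgk1, Ldhb, Pdk3, Pgls, Tkt, Rpia, Rpe, Pgm2 and Bpgm.

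**Figure D1:**
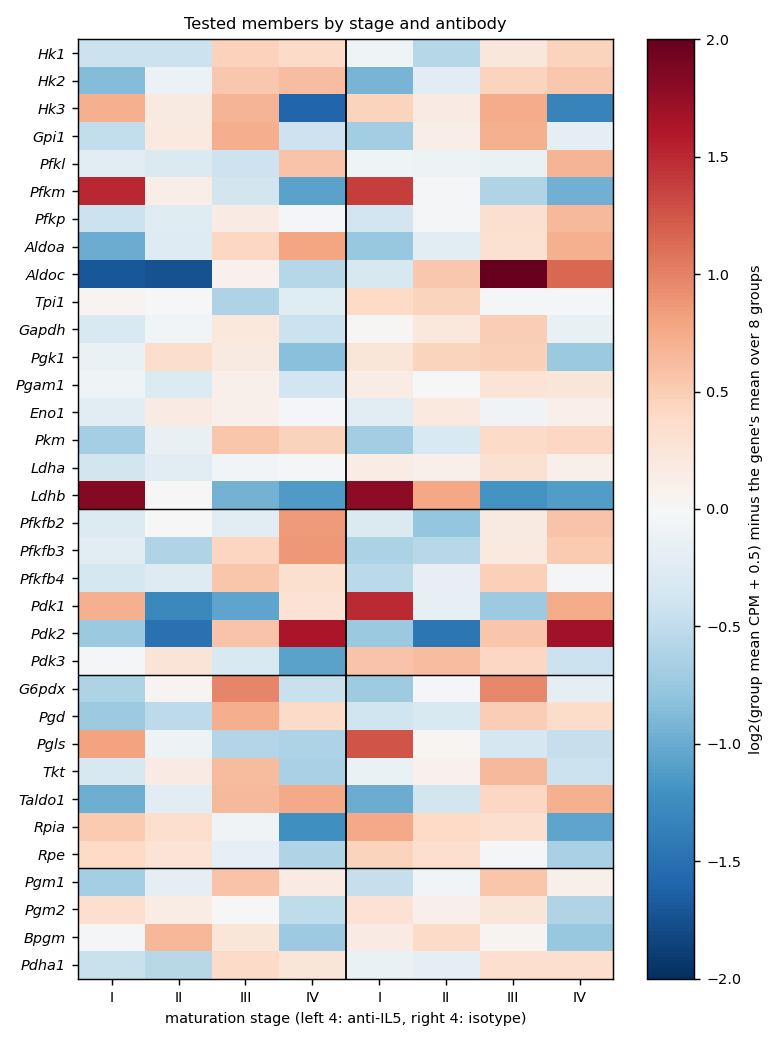
Mean level of the 34 tested members by stage and antibody, as log2(group mean CPM + 0.5) minus the gene's mean over the 8 groups (colour bar), with black lines between glycolysis, regulators, pentose phosphate genes and side steps. Rows that redden after stage II (Hk2, Aldoa, Pkm, Taldo1, Pdk2), peak at stage III (Gpi1, G6pdx, Tkt) or fall away from stage I (Pfkm, Ldhb, Pgls) recur on both sides, and Aldoc is lower under anti-IL5 at every stage.

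The step between stages II and III carried most of the rises, and the step between III and IV most of the falls. Stage III against stage II, 18 members were called under anti-IL5 (16 higher, 2 lower), against 39.5% of all genes (19.8% higher, 19.7% lower), and 15 in isotype libraries (14 higher, 1 lower), against 37.1% (19% higher, 18.1% lower). Stage IV against stage III, 15 were called under anti-IL5 (3 higher, 12 lower), against 23.8% of all genes (10.4% higher, 13.4% lower), and 16 in isotype libraries (3 higher, 13 lower), against 33.6% (14.8% higher, 18.8% lower). Stage II against stage I, 10 were called under anti-IL5 (8 higher, 2 lower), against 12.4% of all genes (7.27% higher, 5.16% lower), and 6 in isotype libraries (4 higher, 2 lower), against 10.6% (7.39% higher, 3.25% lower). With gene-count totals the anti-IL5 counts were 10 higher and 3 lower for stage III against II and 4 higher and 3 lower for stage II against I, and the isotype counts were 10 higher and 1 lower and 3 higher and 2 lower. Counts that involve stage II rest on single libraries. Stage II against I, the anti-IL5 count was 5 without replicate 2 of stage I, 4 without replicate 3 of stage I and 2 without replicate 1 of stage II, and the isotype count was 1 without replicate 1 of stage II. Stage III against II, it was 9 under anti-IL5 without replicate 2 of stage II, and in isotype libraries 7 without replicate 2 of stage II and 9 without replicate 1 of stage III.

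The hexokinases, which trap glucose in the cell as glucose-6-phosphate, exchanged places along maturation. Hk3, the hexokinase typical of myeloid cells, had 94.2, 58.4 and 82.6 CPM at stage IV against 360.0, 349.8 and 429 CPM at stage III under anti-IL5. In isotype libraries it had 106, 79.9 and 96.3 CPM at stage IV against 411, 415 and 365 CPM at stage III. Every stage IV library lay far below every stage III library in both arms. The log2 fold change was -2.28 ± 0.18 under anti-IL5 (edgeR adjusted p = 5.93e-09) and -2.08 ± 0.18 in isotype libraries (edgeR adjusted p = 8.3e-09). Hk2, the inducible hexokinase that binds mitochondria, went the other way, with 209, 204 and 179 CPM at stage IV against 80.7, 68.0 and 61.7 CPM at stage I under anti-IL5 (log2 1.49 ± 0.18, edgeR adjusted p = 3.53e-07). The isotype libraries gave 180.4, 210.2 and 172 CPM at stage IV against 79.0, 69.0 and 54.1 CPM at stage I (log2 1.48 ± 0.18, edgeR adjusted p = 3.34e-07), and the stages did not overlap in either arm.

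Hk1, the hexokinase found in most tissues, rose less. It averaged 158, 158, 292 and 276 CPM at stages I to IV under anti-IL5 and 199.7, 143, 248 and 291 CPM in isotype libraries, and its rise between stages II and III was called in both arms (log2 0.89 ± 0.18 and 0.80 ± 0.18, edgeR adjusted p = 0.000554 and 0.0017). Hk1 had 258, 307.3 and 310.9 CPM at stage III under anti-IL5, against 147 and 168 CPM at stage II. The isotype libraries had 253, 281 and 211 CPM at stage III, against 111 and 175 CPM at stage II. Every stage III library of Hk1 lay above every stage II library in both arms. Per kilobase of transcript, Hk3 made up 70.6%, 58.7%, 53.5% and 19.5% of the summed hexokinase level at stages I to IV under anti-IL5 and 63.0%, 60.9%, 58.1% and 22.4% in isotype libraries. Hk1 held 21.8%, 26.2%, 31.0% and 51.7% under anti-IL5 and 29.3%, 24.5%, 27.2% and 51.8% in isotype libraries over the same stages, and Hk2 7.55%, 15.0%, 15.5% and 28.8% and 7.68%, 14.6%, 14.7% and 25.9%. So Hk3 led at stages I to III and Hk1 at stage IV.

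**Figure D2:**
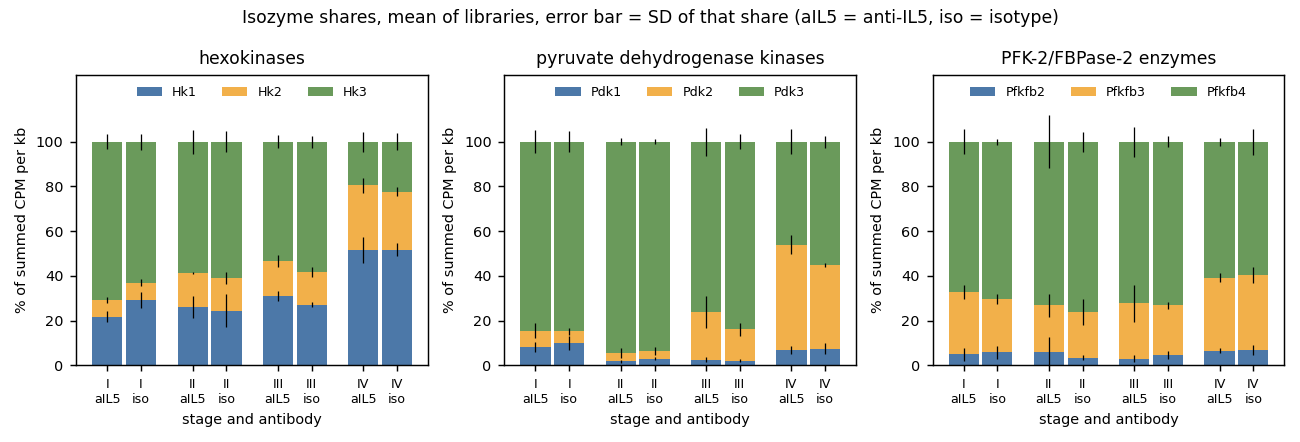
Shares of 3 isozyme families in their summed CPM per kilobase of transcript, mean of the libraries of a group, error bars the SD of each share (n = 3, n = 2 at stage II), with anti-IL5 left of isotype at each stage. Hk3 shrinks to 19.5% under anti-IL5 and 22.4% in isotype libraries at stage IV, Pdk2 grows to 47.0% and 37.3%, and Pfkfb4 stays the largest of its family.

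Gpi1 encodes the isomerase of glucose-6-phosphate, the step after the point where both pathways divide. It had 1147, 978 and 1002 CPM at stage IV against 2323, 2159 and 2361 CPM at stage III under anti-IL5 (log2 -1.13 ± 0.15, edgeR adjusted p = 1.06e-05). Isotype libraries gave 1301, 1207 and 1156 CPM at stage IV against 2544, 2298 and 1957 CPM at stage III (log2 -0.89 ± 0.15, edgeR adjusted p = 0.000102). Stage III stood above all other stages, whose means were 989.9 and 1591 CPM at stages I and II under anti-IL5 and 857 and 1525 CPM in isotype libraries. A near-identical gene copy and an overlapping gene on the opposite strand make its reads partly uncertain.

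Among the phosphofructokinases, which commit the sugar to glycolysis, Pfkl (liver type) and Pfkp (platelet type) were the main forms per kilobase and Pfkm (muscle type) was minor. Pfkl averaged 89.1, 83.6, 76.8 and 152 CPM at stages I to IV under anti-IL5 and 96.5, 95.4, 94.1 and 166 CPM in isotype libraries, with the highest mean at stage IV. Its rise at stage IV against III was 0.99 ± 0.23 on the log2 scale under anti-IL5 and 0.82 ± 0.23 in isotype libraries (edgeR adjusted p = 0.00358 and 0.00979). Pfkl had 174, 139.8 and 143 CPM at stage IV under anti-IL5, against 79.6, 63.9 and 86.7 CPM at stage III. The values in isotype libraries were 181, 138 and 178 CPM at stage IV, against 88.7, 97.0 and 96.5 CPM at stage III. Every stage IV library of Pfkl lay above every stage III library in both arms. Pfkm fell to 0.954, 1.33 and 1.17 CPM at stage IV under anti-IL5, against 7.70, 6.66 and 13.8 CPM at stage I, and to 1.02, 2.58 and 0.281 CPM in isotype libraries, against 6.43, 7.81 and 11.4 CPM (edgeR adjusted p = 0.000253 and 0.000536). No stage IV library reached the lowest stage I library in either arm.

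Aldolase A, which cleaves fructose-1,6-bisphosphate, was among the strongest risers. Aldoa had 3193, 2286 and 2443 CPM at stage IV against 839, 698 and 790.1 CPM at stage I under anti-IL5 (log2 1.77 ± 0.18, edgeR adjusted p = 2.91e-08). With the isotype antibody it had 2475, 2439.7 and 2651 CPM against 755, 991 and 963 CPM (log2 1.48 ± 0.18, edgeR adjusted p = 2.81e-07), again with the stages far apart. Aldoc, the aldolase best known from brain, was a trace partner, at most 1.02% of the aldolase level per kilobase in any group, and is taken up with the antibody below.

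Of the lower glycolytic steps, pyruvate kinase rose and phosphoglycerate kinase fell. Pkm, whose enzyme makes pyruvate and ATP in the last step, averaged 1035, 1510.0, 2460.0 and 2287 CPM at stages I to IV under anti-IL5 and 1034, 1342, 2183 and 2231 CPM in isotype libraries (stage IV against I, log2 1.14 ± 0.16 and 1.11 ± 0.16, edgeR adjusted p = 2.28e-06 and 2.91e-06). Pkm had 2391, 2149 and 2319.8 CPM at stage IV under anti-IL5, against 1089, 958 and 1058 CPM at stage I. In isotype libraries it had 2019, 2276 and 2398 CPM at stage IV, against 897, 1057 and 1149 CPM at stage I. Every stage IV library of Pkm lay above every stage I library in both arms. Pgk1, the first ATP-forming step, had 99.7, 92.4 and 79.8 CPM at stage IV against 188, 177 and 184 CPM at stage III under anti-IL5, and 79.4, 96.2 and 116 CPM against 193, 276 and 212 CPM in isotype libraries (log2 -1.01 ± 0.18 and -1.23 ± 0.18, edgeR adjusted p = 0.000218 and 1.55e-05). Gapdh, often used as a constant control gene, was not constant, since it fell by 0.64 on the log2 scale at stage IV against III in both arms (edgeR adjusted p = 0.00478 under anti-IL5 and 0.00325 in isotype libraries).

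Gapdh has 73 near-identical copies in the annotation, Pgk1 and Ldha 2 each, and Pgam1, Pkm and Ldhb 1 each, so the authors' counting could have split their reads. Eno1, the main enolase of most cells, has 3 such copies and had only 1.14 to 2.601 CPM over the 22 libraries, while the copy Eno1b shares 99.48% identity with it over 1736 bases. The level of Eno1 is therefore uncertain, and no comparison called it.

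Lactate dehydrogenase was almost entirely the A form, at least 98.9% of the family per kilobase in every group. Ldha averaged 835, 916, 1031 and 1055 CPM at stages I to IV under anti-IL5 and 1189, 1152, 1328 and 1156 CPM in isotype libraries. Ldhb, the form that favours pyruvate, fell to 0.477, 0 and 0.809 CPM at stage IV under anti-IL5, against 2.37, 6.47 and 11.5 CPM at stage I, and to 0, 0.758 and 0.562 CPM in isotype libraries, against 8.36, 3.12 and 8.21 CPM (edgeR adjusted p = 0.00575 and 0.00567). Its stage IV levels were near or under the floor of 3 counts.

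The pentose phosphate genes split into a group that rose to stage III and a group that faded from stage I. G6pdx, the entry enzyme that sets NADPH output, had 999, 1022 and 1018 CPM at stage III against 477 and 589.7 CPM at stage II under anti-IL5, and 1014, 1152 and 817 CPM against 507 and 490.0 CPM in isotype libraries. All stage III libraries lay above all stage II libraries (log2 0.92 ± 0.16 and 1.00 ± 0.16, edgeR adjusted p = 8.29e-05 and 5.39e-05). At stage IV it fell to 373, 365 and 395 CPM under anti-IL5 and 419, 526 and 411 CPM in isotype libraries, below every stage III library (log2 -1.42 ± 0.14 and -1.14 ± 0.14, edgeR adjusted p = 1.53e-07 and 1.5e-06). Its exons overlap Ikbkg on the opposite strand, whose reads cannot be told apart in an unstranded library.

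Tkt, the transketolase that moves 2-carbon units between both pathways, followed the same course. It had 532, 505 and 495 CPM at stage IV against 1285, 1226 and 1201 CPM at stage III under anti-IL5, and 544, 625 and 598 CPM against 1266, 1320.5 and 1158 CPM in isotype libraries, with no overlap (log2 -1.28 ± 0.13 and -1.08 ± 0.13, edgeR adjusted p = 2.08e-07 and 9.38e-07). Hk3, Gpi1, G6pdx, Tkt and Pgm1, 5 of 34 members, were called higher at stage III against II and lower at stage IV against III in both arms. That is 14.7% of members, against 0.912% of all tested genes (2.03% under anti-IL5 and 1.72% in isotype libraries). The pattern was chosen after its values were seen. All 4 calls of G6pdx stood in every fit that left out 1 library, and so did the falls at stage IV of Hk3, Gpi1 and Tkt.

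Other calls of this pattern were lost when 1 library was left out. The rise of Hk3 at stage III was lost without anti-IL5 stage II replicate 2 or stage III replicate 1 or 3 (highest edgeR adjusted p = 0.333), and without isotype stage II replicate 2 or stage III replicate 1 or 2 (0.117). That of Gpi1 was lost without anti-IL5 stage II replicate 2 or stage III replicate 3 (highest edgeR adjusted p = 0.184), and without isotype stage II replicate 2 or stage III replicate 1 (0.2). That of Tkt was lost without anti-IL5 stage II replicate 2 (edgeR adjusted p = 0.158) and that of Pgm1 without isotype stage II replicate 2 (edgeR adjusted p = 0.101). The fall of Pgm1 at stage IV was lost in 5 of 6 fits under anti-IL5, all but the one without stage III replicate 1 (highest edgeR adjusted p = 0.181), and without isotype stage III replicate 2 or stage IV replicate 2 or 3 (0.071).

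Taldo1 and Pgd rose and kept most of their rise. Taldo1, the transaldolase of the non-oxidative arm, had 3084, 2435 and 2619 CPM at stage IV against 821, 784 and 838 CPM at stage I under anti-IL5 (log2 1.74 ± 0.16, edgeR adjusted p = 7.76e-09). The isotype libraries had 2524, 2638 and 2692 CPM against 700.5, 837 and 884 CPM (log2 1.70 ± 0.16, edgeR adjusted p = 8.31e-09). Stage IV exceeded stage I in every library, and per kilobase Taldo1 was the most abundant member in all 8 groups but isotype stage I, with 598, 1017, 1845 and 1992 CPM per kilobase at stages I to IV under anti-IL5 and 593, 906, 1563 and 1922 in isotype libraries. Pgd, the second NADPH-making enzyme, averaged 252, 289, 692 and 545 CPM under anti-IL5 and 315.98, 338, 586 and 541 CPM in isotype libraries over stages I to IV (stage III against II, log2 1.26 ± 0.16 and 0.79 ± 0.16, edgeR adjusted p = 3.12e-06 and 0.000499). Pgd had 660.1, 691 and 725 CPM at stage III under anti-IL5, against 262 and 316.01 CPM at stage II. Isotype libraries gave 618, 629 and 511 CPM at stage III, against 277 and 398 CPM at stage II. Every stage III library of Pgd lay above every stage II library in both arms.

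**Figure D3:**
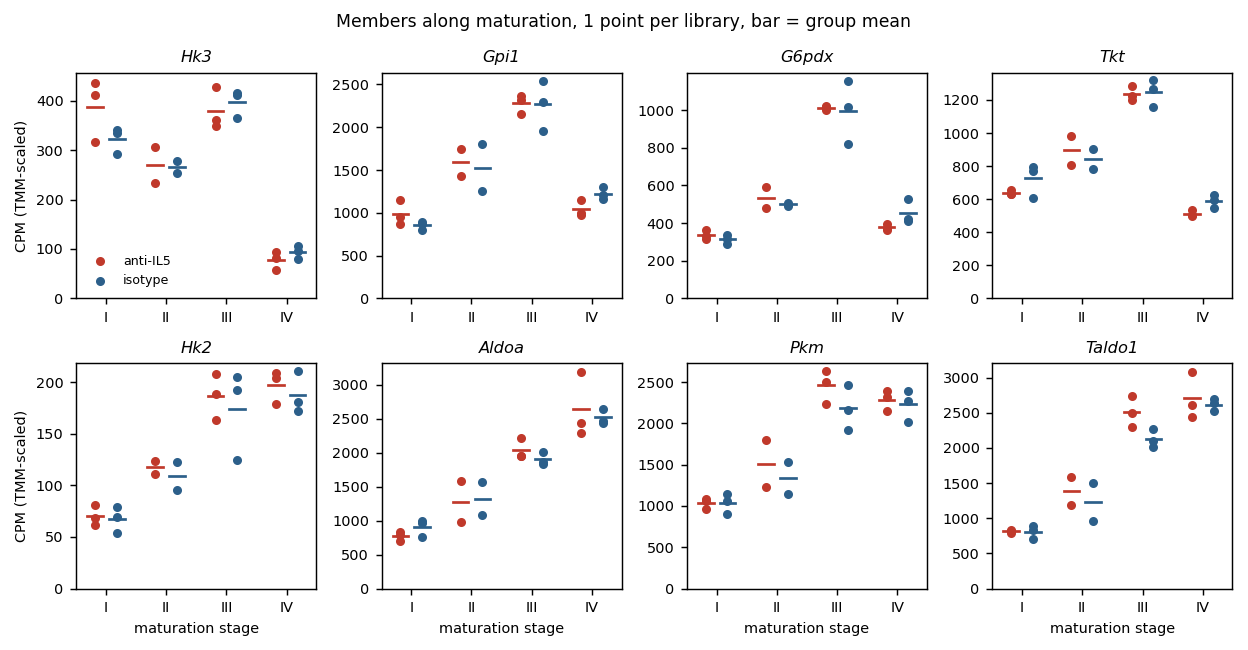
CPM of 8 members by stage, 1 point per library and a bar for the group mean, with anti-IL5 (red) left of isotype (blue). Hk3, Gpi1, G6pdx and Tkt (upper row) drop between stages III and IV, while Hk2, Aldoa, Pkm and Taldo1 (lower row) stay high at stage IV.

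The lactonase and the pentose isomerases declined instead. Pgls, which opens the lactone made by G6pdx, fell to 45.6, 50.7 and 53.7 CPM at stage IV under anti-IL5, against 107, 145 and 153 CPM at stage I, and to 49.4, 50.1 and 68.7 CPM in isotype libraries, against 135, 190.3 and 235 CPM (log2 -1.43 ± 0.21 and -1.74 ± 0.21, edgeR adjusted p = 4.12e-06 and 2.54e-07). Rpe and Rpia, which interconvert the pentose phosphates, averaged 27.5 and 1.89 CPM at stage IV against 55.9 and 7.46 CPM at stage I under anti-IL5, and 26.8 and 2.17 CPM against 57.4 and 8.95 CPM in isotype libraries. The fitted fold changes were -1.02 ± 0.23 and -1.96 ± 0.37 on the log2 scale under anti-IL5, and -1.10 ± 0.23 and -2.04 ± 0.37 in isotype libraries, with edgeR adjusted p no higher than 0.000705. Rpe had 23.6, 38.1 and 20.8 CPM at stage IV under anti-IL5, against 39.7, 62.4 and 65.4 CPM at stage I. The values in isotype libraries were 22.7, 30.0 and 27.5 CPM at stage IV, against 53.5, 58.1 and 60.7 CPM at stage I. Every stage IV library of Rpe lay below every stage I library in both arms. Exons of Pgls overlap Fam129c and those of Rpe overlap Kansl1l. The 7 pentose phosphate genes together summed to 2239, 3234, 5549 and 4225 CPM at stages I to IV under anti-IL5 and 2415, 3055, 5066 and 4285 CPM in isotype libraries, and the 18 glycolytic genes to 5766, 7512, 10409 and 8956 CPM and 6437, 7895, 10697 and 9417 CPM.

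The regulators changed partners as well. Pdk2, one of the pyruvate dehydrogenase kinases, had 36.3, 43.3 and 48.4 CPM at stage IV against 4.26, 5.52 and 13.5 CPM at stage I under anti-IL5 (log2 2.45 ± 0.40, edgeR adjusted p = 1.51e-05). With the isotype antibody it had 33.8, 49.9 and 48.0 CPM against 9.10, 7.29 and 6.98 CPM (log2 2.49 ± 0.39, edgeR adjusted p = 1.02e-05). Pdk3, the leading form per kilobase except at stage IV under anti-IL5, fell to 42.6, 36.1 and 38.6 CPM at stage IV under anti-IL5, against 70.6, 80.6 and 90.8 CPM at stage I, and to 44.0, 74.1 and 66.9 CPM in isotype libraries, against 94.5, 147 and 129.9 CPM (log2 -1.05 ± 0.18 and -1.01 ± 0.18, edgeR adjusted p = 3.4e-05 and 4.1e-05). Per kilobase, Pdk2 made up 7.23%, 3.89%, 21.2% and 47.0% of the kinases at stages I to IV under anti-IL5 and 5.23%, 3.31%, 14.1% and 37.3% in isotype libraries, and Pdk3 84.6%, 94.3%, 76.3% and 46.1% and 84.8%, 93.6%, 83.8% and 55.2%.

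Pdk1, a kinase known as a hypoxia-responsive gene, dipped in the middle stages. It averaged 19.7, 4.56, 5.48 and 14.6 CPM at stages I to IV under anti-IL5 and 34.4, 10.5, 6.98 and 20.1 CPM in isotype libraries. Its fall at stage II against I was called in both arms (log2 -2.12 ± 0.45 and -1.71 ± 0.43, edgeR adjusted p = 0.00397 and 0.0137); without isotype stage II replicate 1 the isotype call was lost (edgeR adjusted p = 0.187). Pdk1 had 10.7, 13.6 and 19.4 CPM at stage IV under anti-IL5, against 7.65, 3.08 and 5.70 CPM at stage III. In isotype libraries it had 16.8, 14.9 and 28.7 CPM at stage IV, against 4.46, 8.83 and 7.65 CPM at stage III. Every stage IV library of Pdk1 lay above every stage III library in both arms. Pfkfb3 and Pfkfb4 make fructose-2,6-bisphosphate, the activator of phosphofructokinase. Pfkfb3 averaged 29.4, 22.3, 46.0 and 62.5 CPM at stages I to IV under anti-IL5 and 21.8, 23.1, 39.0 and 49.2 CPM in isotype libraries (stage IV against I, log2 1.09 ± 0.27 and 1.17 ± 0.28, edgeR adjusted p = 0.00163 and 0.000805). Pfkfb3 had 51.3, 63.0 and 73.1 CPM at stage IV under anti-IL5, against 31.2, 30.4 and 26.7 CPM at stage I. The isotype libraries had 47.6, 54.2 and 45.8 CPM at stage IV, against 26.1, 18.6 and 20.7 CPM at stage I. Every stage IV library of Pfkfb3 lay above every stage I library in both arms. Pfkfb4 averaged 52.2, 56.0, 98.6 and 83.7 CPM and 46.0, 59.8, 92.9 and 64.7 CPM, and Pfkfb2, a minor form that overlaps Yod1, 4.95, 6.07, 5.12 and 11.4 CPM and 4.90, 3.36, 6.96 and 9.27 CPM.

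At the side steps, Pgm1 and Pgm2, phosphoglucomutases that connect glucose-6-phosphate with glycogen and with ribose, moved apart. Pgm1 averaged 39.7, 56.4, 94.5 and 71.5 CPM at stages I to IV under anti-IL5 and 46.1, 61.1, 93.7 and 68.6 CPM in isotype libraries, whereas Pgm2 averaged 104, 91.0, 82.6 and 57.5 CPM and 101, 88.0, 97.3 and 54.2 CPM. Pgm2 had 45.7, 64.3 and 62.6 CPM at stage IV under anti-IL5, against 93.5, 95.6 and 123 CPM at stage I. Isotype libraries gave 45.5, 56.7 and 60.2 CPM at stage IV, against 97.9, 107 and 96.4 CPM at stage I. Every stage IV library of Pgm2 lay below every stage I library in both arms. Annotation releases have exchanged these symbols, so which enzyme each name stands for is uncertain, and no position is given for them. Bpgm, which makes 2,3-bisphosphoglycerate, averaged 12.2, 19.8, 14.6 and 7.23 CPM under anti-IL5 and 13.8, 16.2, 12.8 and 7.12 CPM in isotype libraries. Bpgm had 8.11, 8.90 and 4.67 CPM at stage IV under anti-IL5, against 10.4, 15.6 and 10.4 CPM at stage I. The values in isotype libraries were 7.06, 6.89 and 7.40 CPM at stage IV, against 13.7, 11.1 and 16.7 CPM at stage I. Every stage IV library of Bpgm lay below every stage I library in both arms. Pdha1, the catalytic subunit that commits pyruvate to acetyl-CoA, averaged 49.5, 45.9, 88.4 and 80.3 CPM and 61.7, 59.6, 85.6 and 85.1 CPM, and part of its exons overlap Map3k15. Pdha1 had 85.9, 98.8 and 80.3 CPM at stage III under anti-IL5, against 42.0 and 49.8 CPM at stage II. With the isotype antibody it had 97.5, 92.8 and 66.4 CPM at stage III, against 60.1 and 59.1 CPM at stage II. Every stage III library of Pdha1 lay above every stage II library in both arms.

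Genes around the pathway gave a context for these courses. Of 8 glucose and lactate transport genes, 4 were higher at stage IV than at stage I in both arms (Slc2a1, Slc2a3, Slc2a6 and Slc16a3), 3 were lower under anti-IL5 and 2 in isotype libraries. Slc2a3, a high-affinity glucose transporter, averaged 71.7, 315.1, 1239 and 963 CPM at stages I to IV under anti-IL5 and 47.3, 156, 879.8 and 999 CPM in isotype libraries. Slc16a3, the lactate exporter MCT4, averaged 39.0, 68.1, 218 and 349 CPM and 38.5, 69.3, 234 and 454 CPM, while Slc16a1, the transporter MCT1, fell to 0.704 ± 0.454 CPM at stage IV under anti-IL5 against 28.2 ± 11.6 CPM at stage I, and to 0.541 ± 0.712 CPM in isotype libraries against 71.8 ± 15.8 CPM (SD, n = 3). Of 14 tested other glycolysis genes, 1 was higher and 5 lower under anti-IL5 and 2 were higher and 7 lower in isotype libraries. Of 12 tested other genes of pentose phosphate and NADPH metabolism, 5 were higher and 5 lower in each arm, and of 9 tested genes of pyruvate dehydrogenase and pyruvate entry, 1 was higher in each arm, with 3 lower under anti-IL5 and 4 in isotype libraries. For stage IV against I, 63.5% of all tested genes were called under anti-IL5 (30.7% higher, 32.8% lower). In isotype libraries the share was 66.2% (32.3% higher, 33.9% lower).

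Scaling sets part of the direction of maturation changes. With gene-count totals in place of TMM, the median of all genes moved by -0.42 on the log2 scale for stage IV against stage I in both arms. Of the 26 members called under anti-IL5, 19 were still called, and Pfkl, Aldoc, Pfkfb3, Pfkfb4, Pdha1, Pfkp and Ldha were not, the last 2 with a changed sign. Of the 27 called in isotype libraries, 21 were still called, and Hk1 (log2 0.13), Gpi1 (0.09), G6pdx (0.12), Pfkl (0.36), Pgm1 (0.16) and Pdha1 (0.05) were not, at edgeR adjusted p values of 0.149 to 0.79.

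Proliferation markers moved with the same axis, with a summed level of 83.8 to 108 CPM at stage IV against 1549 to 1892 CPM at stage I under anti-IL5, and 84.9 to 97.4 CPM against 1232 to 1690.3 CPM in isotype libraries. Neutrophil markers (13 listed, none at 0 throughout) summed to 727 to 1805 CPM at stage IV against 2795 to 10755 CPM at stage I under anti-IL5, and 329.7 to 509 CPM against 5323 to 7242 CPM in isotype libraries. Basophil and mast cell markers summed to 30.4 to 58.4 CPM at stage IV against 832 to 1721 CPM at stage I under anti-IL5, with 7 of 7 called lower, and to 62.02 to 89.1 CPM against 1247 to 1852 CPM in isotype libraries, with 6 of 7 called lower. Markers of T, NK and innate lymphoid cells, of which only Nkg7 was tested, summed to 2.39 to 6.67 CPM against 758 to 1018 CPM under anti-IL5 and 2.12 to 3.66 CPM against 877 to 1232 CPM in isotype libraries, with Nkg7 lower in both arms. Megakaryocyte markers summed to 95.7 to 137 CPM against 795 to 1262 CPM under anti-IL5 and 145 to 164 CPM against 789 to 1049 CPM in isotype libraries, with 2 and 3 of 4 called lower. The part of these markers in the member courses was not tested.

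In the mean over stages 8 glycolytic and regulatory genes were called lower under anti-IL5, and no pentose phosphate gene was called. Averaged over the 4 stages, 8 of 34 members were lower under anti-IL5 and 0 higher, which is 23.5% of members, against 10.3% of all tested genes lower and 8.6% higher (18.9% in all). The 8 were Aldoc, Pdk3, Tpi1, Ldha, Pgam1, Pdk1, Gapdh and Pfkp, that is 6 of 17 tested glycolytic genes and 2 of 6 regulators. None of the 7 pentose phosphate genes or the 4 side-step genes was called by edgeR; at an unadjusted p under 0.05, 11 members passed, adding Pgk1, Pgls and Pdha1 to the 8. Pgls and Pdha1 had log2 -0.26 ± 0.11 and -0.18 ± 0.08 (edgeR adjusted p = 0.106 and 0.132). The median log2 fold change was -0.06 over the 34 members and -0.00 over all tested genes. By branch it was -0.11 for glycolysis, 0.06 for the regulators, -0.08 for the pentose phosphate genes and -0.04 for the side steps. A difference between branches was not tested. A total of 12 of 34 members (35.3%) had a log2 fold change below 0 at all 4 stages, against 17% of all genes. They were the 8 without exception, with Pgk1, Pfkl, Pgls and Rpia. The 8 were called on the mean of these same 4 effects, so their shared sign adds no separate support. Hk2, Pkm and Taldo1, 8.82% of members, were above 0 at all 4, against 16.2% of all genes.

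**Figure D4:**
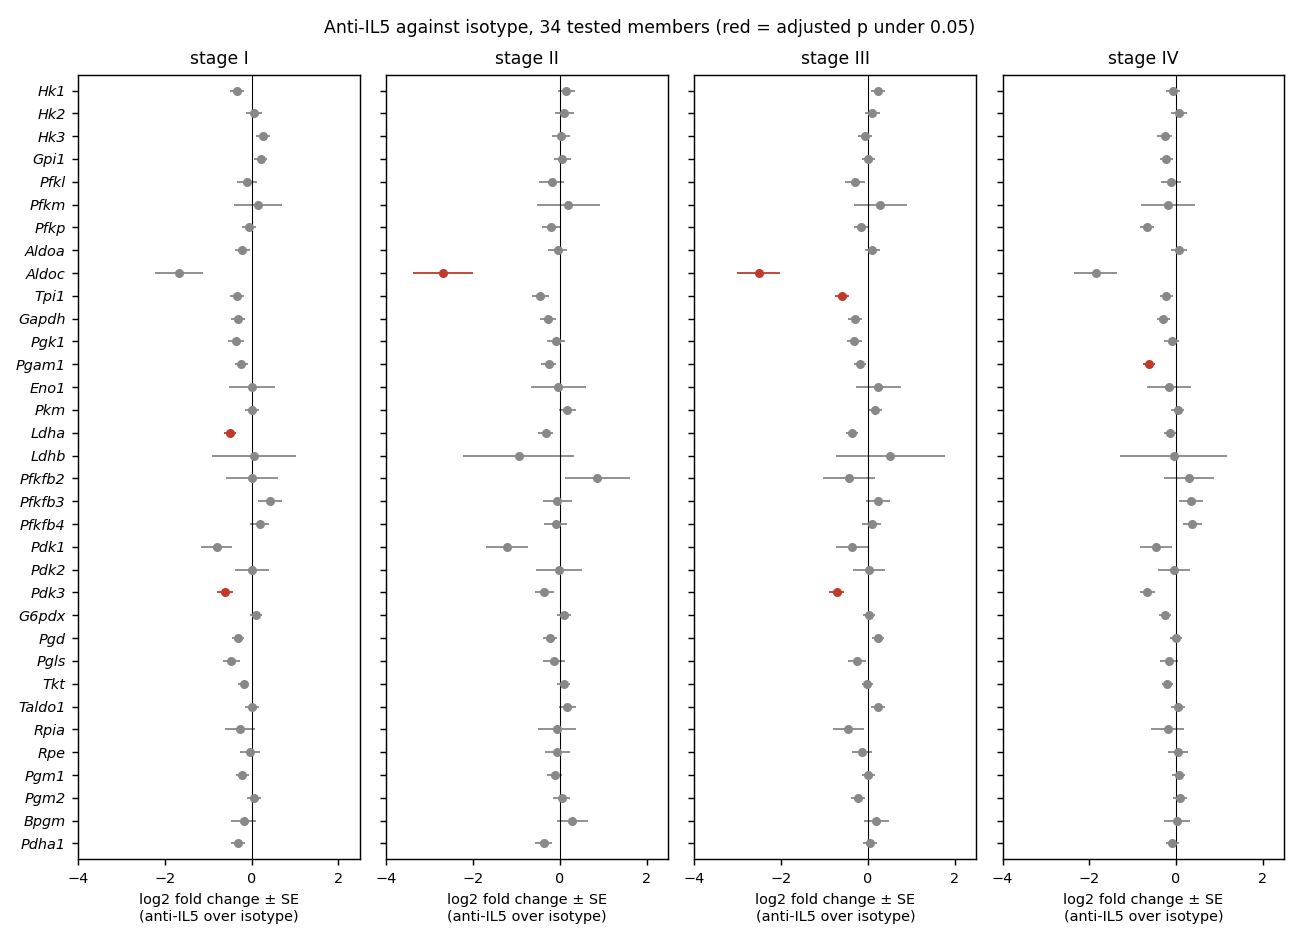
Log2 fold change of anti-IL5 over isotype with its standard error for the 34 tested members, 1 panel per stage, with members called at an edgeR adjusted p under 0.05 in red. The 7 red points all lie left of 0, and Aldoc lies furthest left in every panel.

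Stage by stage the calls were few. At stage I, 2 members were lower, against 1.82% of all genes lower and 2.61% higher (4.42% in all). At stage II 1 was lower, against 1.19% lower and 0.565% higher (1.75%). At stage III 3 were lower, against 5.05% lower and 1.32% higher (6.37%). At stage IV 1 was lower, against 0.864% lower and 0.186% higher (1.05%). By edgeR, 0 members were higher at any stage. At an unadjusted p under 0.05 the counts were 8, 3, 4 and 4 lower, and none was higher. No member had an effect that differed between adjacent stages or over the 4 stages by edgeR's test of the difference (0 calls in each of the 4 tests; unadjusted p under 0.05 for 0, 1 and 2 members between stages I and II, II and III, and III and IV, and for 1 over all stages). Of all tested genes, 0%, 0% and 0.638% (0.541% higher, 0.0969% lower) were called for those adjacent differences and 1.07% over all stages. A gene called at one stage and not at another is therefore not shown to differ between them.

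Aldoc (chromosome 11, 78322968 to 78327781, plus strand, GRCm38) showed the largest difference at every stage. At stage III it had 5.79, 5.38 and 7.30 CPM in anti-IL5 libraries, against 30.0, 37.9 and 38.2 CPM in isotype libraries. The lowest isotype library exceeded the highest anti-IL5 library severalfold (log2 -2.52 ± 0.50, edgeR adjusted p = 0.00375). At stage I it had 2.37, 0.666 and 1.27 CPM under anti-IL5, against 6.73, 2.91 and 3.87 CPM in isotype libraries (log2 -1.68 ± 0.55, edgeR adjusted p = 0.0877). At stage II the values were 2.42 and 0.314 CPM under anti-IL5, against 13.7 and 3.51 CPM (log2 -2.68 ± 0.69, edgeR adjusted p = 0.0485). At stage IV they were 4.89, 2.49 and 3.78 CPM under anti-IL5, against 12.8, 15.9 and 11.4 CPM (log2 -1.85 ± 0.50, edgeR adjusted p = 0.0866). The groups did not overlap at any stage. The stage II call was lost without isotype replicate 1 or anti-IL5 replicate 2 (highest edgeR adjusted p = 0.352), while the stage III call and the mean over stages (log2 -2.19 ± 0.28, edgeR adjusted p = 1.84e-05) were kept in every fit that left out 1 library. Aldoc rose between stages II and III in both arms (log2 2.21 ± 0.65 under anti-IL5 and 2.05 ± 0.57 in isotype libraries), calls that were lost without anti-IL5 stage II replicate 2 (edgeR adjusted p = 0.152) and isotype stage II replicate 2 (edgeR adjusted p = 0.105).

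Pdk3 (chromosome X, 93764607 to 93832201, minus strand) was called lower at 2 stages and had a log2 fold change below 0 at all 4. At stage III it had 68.5, 65.5 and 67.3 CPM under anti-IL5, against 108, 117 and 107 CPM in isotype libraries (log2 -0.72 ± 0.18, edgeR adjusted p = 0.018). At stage I it had 70.6, 80.6 and 90.8 CPM under anti-IL5, against 94.5, 147 and 129.9 CPM (log2 -0.62 ± 0.18, edgeR adjusted p = 0.0497). The groups stood apart at both stages. The stage III call was lost without anti-IL5 replicate 2 or 3 (highest edgeR adjusted p = 0.0692). The stage I call was lost in 5 of 6 such fits, all but the one without isotype replicate 1 (highest edgeR adjusted p = 0.274). At stages II and IV its log2 fold change was -0.36 ± 0.22 and -0.66 ± 0.18 (edgeR adjusted p = 0.517 and 0.0936), and over the stages -0.59 ± 0.09 (edgeR adjusted p = 0.00017, called in all 22 leave-one-out fits). Its relative Pdk1 had 5.35 and 3.77 CPM at stage II under anti-IL5, against 7.67 and 13.4 CPM in isotype libraries (log2 -1.21 ± 0.48, edgeR adjusted p = 0.247). Over the stages Pdk1 was lower, with a log2 fold change of -0.71 ± 0.20 (edgeR adjusted p = 0.0154; 0.0569 without isotype stage II replicate 2, which ended the call).

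Ldha (chromosome 7, 46841475 to 46855627, plus strand) had 825, 844 and 835 CPM at stage I under anti-IL5, against 942, 1335 and 1289 CPM in isotype libraries (log2 -0.51 ± 0.14, edgeR adjusted p = 0.0417). Isotype replicate 1 lay closest to the anti-IL5 libraries, and without any one of the 5 other stage I libraries the call was lost (highest edgeR adjusted p = 0.217). At stage III it had 1085, 998 and 1008 CPM under anti-IL5, against 1205, 1387 and 1391 CPM (log2 -0.37 ± 0.14, edgeR adjusted p = 0.123), apart but not called. The log2 fold changes at stages II and IV were -0.33 ± 0.17 and -0.13 ± 0.14, and the mean over stages was -0.33 ± 0.07 (edgeR adjusted p = 0.00297, called in all 22 leave-one-out fits).

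Tpi1 (chromosome 6, 124810586 to 124814296, minus strand), whose isomerase brings both products of aldolase onto one route, had 264, 207 and 225 CPM at stage III under anti-IL5, against 306.4, 343 and 405 CPM in isotype libraries (log2 -0.60 ± 0.15, edgeR adjusted p = 0.0226). No library of either group crossed into the other, and the call was lost without isotype replicate 3 or anti-IL5 replicate 2 or 3 (highest edgeR adjusted p = 0.123). At stage II it had 367 and 348 CPM under anti-IL5, against 469 and 506 CPM (log2 -0.45 ± 0.19, edgeR adjusted p = 0.286). The mean over stages was -0.40 ± 0.08 (edgeR adjusted p = 0.00149, called in all 22 leave-one-out fits).

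Pgam1 (chromosome 19, 41911923 to 41918660, plus strand), the mutase before enolase, had 96.0, 105 and 79.0 CPM at stage IV under anti-IL5, against 126, 157 and 148 CPM in isotype libraries (log2 -0.62 ± 0.14, edgeR adjusted p = 0.0305). The groups did not overlap, and the call was lost without isotype replicate 2 or 3 or anti-IL5 replicate 1 or 3 (highest edgeR adjusted p = 0.185). The Pgam1 call was also lost in a fit of only the compared groups. Pfkp (chromosome 13, 6579768 to 6648777, minus strand), part of whose exons overlap Pitrm1, had 99.6, 114 and 108 CPM at stage IV under anti-IL5, against 167, 185 and 159 CPM (log2 -0.67 ± 0.17, edgeR adjusted p = 0.0506), groups that did not overlap. This was just outside the threshold. It was called under all 7 alternative settings of scaling, filter, tool, block or groups fitted, and in none of the 6 fits that left out 1 compared library (edgeR adjusted p = 0.0826 to 0.234). Over the stages Pgam1 and Pfkp were lower, with log2 fold changes of -0.32 ± 0.08 and -0.28 ± 0.09 (edgeR adjusted p = 0.00437 and 0.0308). The Pfkp mean lost its call in 9 of 22 leave-one-out fits (isotype stage I replicate 2, II 1, III 1, III 2 and IV 2, and anti-IL5 stage I replicate 2, II 2, III 3 and IV 1; highest edgeR adjusted p = 0.0968), and that of Pgam1 in none.

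Gapdh completed the set with a mean of -0.29 ± 0.08 on the log2 scale (edgeR adjusted p = 0.016, called in all 22 leave-one-out fits). It averaged 690.1, 816, 979 and 629 CPM at stages I to IV under anti-IL5 and 863, 985, 1199.7 and 770.2 CPM in isotype libraries, and was called at no single stage. Of the abundant members that rose along maturation, Aldoa had log2 fold changes of -0.22 ± 0.18, -0.05 ± 0.22, 0.10 ± 0.18 and 0.07 ± 0.18 at stages I to IV, Taldo1 0.01 ± 0.16, 0.17 ± 0.20, 0.24 ± 0.16 and 0.05 ± 0.16, and G6pdx 0.10 ± 0.14, 0.10 ± 0.17, 0.03 ± 0.14 and -0.26 ± 0.14, none of them called.

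**Figure D5:**
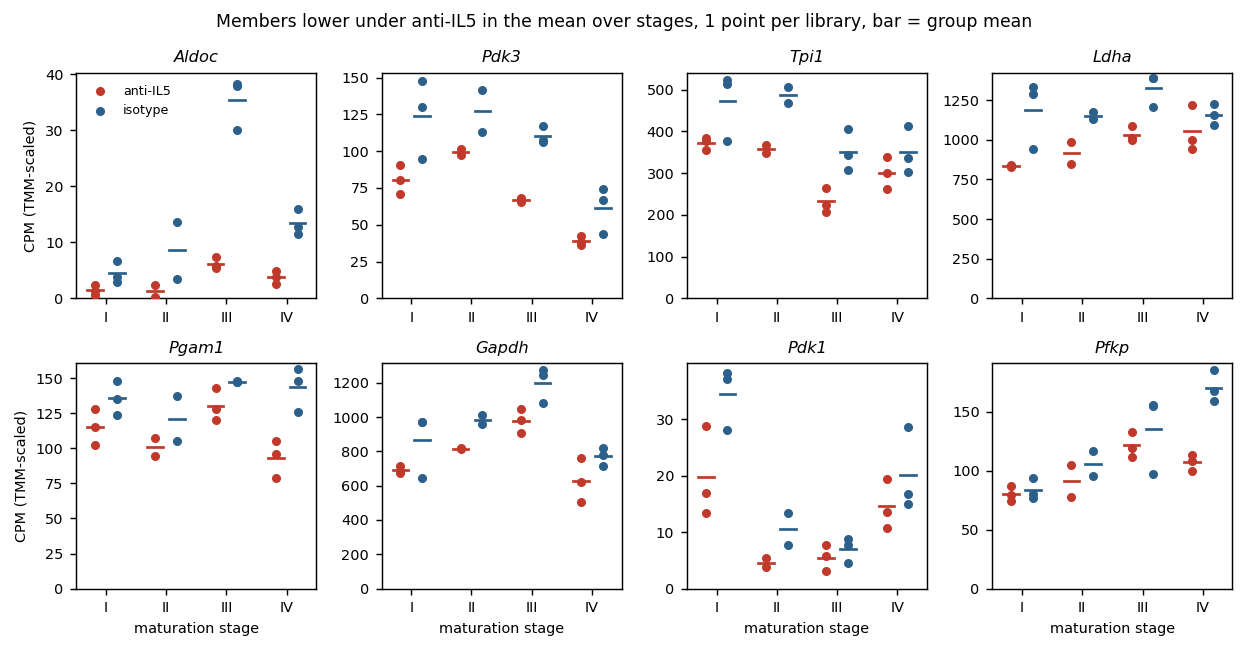
CPM of the 8 members that were lower under anti-IL5 in the mean over stages, 1 point per library and a bar for the group mean, with anti-IL5 (red) left of isotype (blue). The bars of anti-IL5 lie below those of isotype at all 4 stages in each panel, with the points of Aldoc and Pdk3 fully apart at stage III and those of Pfkp and Pgam1 at stage IV.

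The stretches upstream of 4 of these genes are printed to show where a motif common in glycolytic promoters does and does not occur. ACGTG is the core that hypoxia-inducible factors are known to bind, and CACGTG is the E-box of Myc and related factors. Both strands were searched, a CACGTG holds ACGTG on each strand, and capitals mark every match in the 250 bases before the RefSeq start (GRCm38.p6, 5′ to 3′ on the gene's strand).
Aldoc, chr11:78322823-78323072, plus strand: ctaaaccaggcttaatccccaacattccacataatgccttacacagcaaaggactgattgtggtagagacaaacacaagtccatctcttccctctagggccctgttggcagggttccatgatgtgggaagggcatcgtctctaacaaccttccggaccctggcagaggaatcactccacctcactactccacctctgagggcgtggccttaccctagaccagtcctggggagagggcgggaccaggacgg
Pdk3, chrX:93832151-93832400, minus strand: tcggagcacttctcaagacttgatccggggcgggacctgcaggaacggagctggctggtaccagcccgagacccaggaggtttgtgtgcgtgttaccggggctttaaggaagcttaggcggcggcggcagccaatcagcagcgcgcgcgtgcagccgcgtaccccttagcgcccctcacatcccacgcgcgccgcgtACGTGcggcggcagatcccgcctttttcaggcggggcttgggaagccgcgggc
Ldha, chr7:46845554-46845803, plus strand: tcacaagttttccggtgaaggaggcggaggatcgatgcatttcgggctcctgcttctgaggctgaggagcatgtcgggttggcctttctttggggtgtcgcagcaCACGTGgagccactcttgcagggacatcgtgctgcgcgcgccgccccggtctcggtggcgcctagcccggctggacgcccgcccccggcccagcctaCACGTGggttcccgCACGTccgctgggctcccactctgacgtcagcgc
Pgam1, chr19:41911621-41911870, plus strand: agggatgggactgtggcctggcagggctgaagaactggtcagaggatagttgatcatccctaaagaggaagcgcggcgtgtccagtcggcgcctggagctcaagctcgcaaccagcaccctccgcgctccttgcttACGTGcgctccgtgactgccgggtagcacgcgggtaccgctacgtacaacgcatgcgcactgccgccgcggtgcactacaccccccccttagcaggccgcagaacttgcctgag
Ldha holds 5 ACGTG matches, 4 of them within its 2 CACGTG, Pdk3 and Pgam1 hold 1 ACGTG each, and Aldoc none. Tpi1, Gapdh, Pdk1 and Pfkp, the other members of the set, hold none in this window. Of 33 members with a RefSeq promoter, 9 hold ACGTG (27.3%), against 16.7% of 26794 promoters, and 3 hold CACGTG (9.09%), against 6.09%. The 9 were Hk2, Hk3, Pfkm, Pgk1, Pgam1, Ldha, Pfkfb3, Pdk2 and Pdk3. A match is only these letters in this window. RefSeq starts can differ from the GENCODE gene positions given above. The window of Ldha lies inside its GENCODE bounds, and those of Aldoc and Pdk3 reach into theirs. Stretches before differing GENCODE starts were not searched separately.

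Other genes of glucose handling were called at a rate near that of all genes. In the mean over stages 9 of the 43 tested genes of 4 lists were called, or 20.9%, against 18.9% of all tested genes. Of 8 transport genes, 1 was higher (Slc2a3, log2 0.51 ± 0.12, edgeR adjusted p = 0.00422) and 3 were lower, namely Slc2a1 (log2 -0.28 ± 0.09, edgeR adjusted p = 0.0403), Slc16a1 (log2 -1.25 ± 0.36, edgeR adjusted p = 0.0188) and Bsg, the partner protein of the lactate transporters (log2 -0.24 ± 0.07, edgeR adjusted p = 0.0197). Of 14 other glycolysis genes, 1 was higher (Pgam2) and 3 were lower (Pgam5, G6pc3 and Minpp1). Of 12 other pentose phosphate and NADPH genes, 1 was lower, Prps1, which makes phosphoribosyl pyrophosphate, with 14.5 ± 1.57 CPM at stage III under anti-IL5 against 29.9 ± 0.788 CPM in isotype libraries (SD, n = 3; log2 -1.05 ± 0.21, edgeR adjusted p = 0.00403). None of the 9 tested genes of pyruvate dehydrogenase and pyruvate entry was called.

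Markers of other cells moved beside these differences. Basophil and mast cell markers summed to 254 to 364 CPM at stage II under anti-IL5, against 533 to 767 CPM in isotype libraries, with 1 of 7 lower (Cyp11a1). At stage III they summed to 57.0 to 78.9 CPM under anti-IL5, against 302 to 793 CPM in isotype libraries, with 4 of 7 lower (Mcpt8, Cpa3, Ms4a2 and Cyp11a1). At stage IV the sums were 30.4 to 58.4 CPM under anti-IL5 and 62.02 to 89.1 CPM in isotype libraries, with none of 7 called. The markers of T, NK and innate lymphoid cells summed to 201 to 279.5 CPM at stage II under anti-IL5, against 469 to 517 CPM, and to 17.4 to 19.7 CPM at stage III, against 86.4 to 221 CPM, where Nkg7 was lower. At stage I, 2 of 11 eosinophil markers were higher under anti-IL5 (Ccr3 and Alox15) and 0 lower. In the mean over stages the same 2 were higher and 4 lower (Epx, Prg2, Prg3 and Ear6). Csf1r, a monocyte and macrophage marker, and Cd79a, a B lineage marker, were also higher at stage I, and Cyp11a1 was lower. Eosinophil markers summed to 27297 to 32718 CPM at stage III under anti-IL5, against 43249.6 to 50243 CPM in isotype libraries, with 2 of 11 lower (Epx and Prg3). At stage IV they summed to 9617 to 10725 CPM, against 11194 to 12614 CPM, with 3 of 11 lower (Epx, Prg2 and Ear6). Proliferation markers summed to 237 to 429 CPM at stage III under anti-IL5, against 609 to 821 CPM in isotype libraries, with 2 of 6 lower (Mcm3 and Pcna). Neutrophil markers summed to 727 to 1805 CPM at stage IV under anti-IL5, against 329.7 to 509 CPM, with 2 of 13 higher (Ngp and S100a9). S100a9 was also higher at stage III. In the mean over stages, 4 of 13 neutrophil markers were higher (Ngp, Ltf, Ly6g and S100a9) and 0 lower. Of 7 basophil and mast cell markers, 3 were lower in that mean (Cpa3, Ms4a2 and Cyp11a1) and 0 higher. Csf1r and Cd79a were higher in it, and Nkg7 and Mcm3 lower. The part of these markers in the member differences was not tested.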

How the data were processed

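The kits were SMART-Seq v4 (cDNA) and Nextera XT (libraries), per the labels' protocols, a chemistry that does not mark strand. The authors deposited raw counts per gene symbol for each library. STAR 2.6.1a, DESeq2 (role not stated) and build mm10 stand in the submitters' processing notes, which name no counting tool or annotation among the sources used here. The no_feature line (12.7% to 22.1% of a library's counts) and the ambiguous line (1.86% to 2.39%) were kept out of totals and tests.

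CPM used TMM-scaled totals of the deposited counts. A single quasi-likelihood model in edgeR 4.0.16 (R 4.3.3) covered the 8 groups of 22 libraries, after filterByExpr kept 12387 of 16619 genes with any count, with robust dispersion, two-sided tests and Benjamini-Hochberg adjustment; a call needed an adjusted p under 0.05. The model was also run on simulated counts drawn with its fitted dispersions. For anti-IL5 against isotype at stage III it recovered 160 of 200 changed genes, with 6 false calls. Log2 fold changes carry their SE and means their SD. Positions, lengths and copies come from GENCODE vM21 (GRCm38), promoters from RefSeq. Alternatives used DESeq2 1.42.0, limma 3.58.1, other scalings, no filter, blocks by replicate number, only the compared groups and left-out libraries. The members, lists and tests were chosen with earlier results of these data known. Values per library are given for members called under anti-IL5 at a stage (the 3 of smallest p where fewer were called), for up to 6 called rises and 6 called falls of largest size in each step of maturation among members averaging 10 CPM or more in the higher of the compared groups, and for isozymes of a step; other members are given by means. Counts for the glycogen and NADPH oxidase lists are not reported here.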

Additional observations from a re-analysis of the deposited data

How the results depend on the processing

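Counts of called members are those of edgeR unless another tool is named. At stage IV, anti-IL5 against isotype, the 1 call became 2 with DESeq2 size factors, with gene-count totals, with no filter and in a fit of only the compared groups, 3 with limma-voom and with a replicate block, and 4 with DESeq2. The fit of only the compared groups lost the Pgam1 call, and its 2 calls were other members. At stage I, 2 became 1 with gene-count totals or with no filter. At stage II, 1 became 0 with limma-voom or in a fit of only the compared groups. In fits of only the compared groups the isotype counts were 2 for stage II against I and 5 for stage III against II, and the anti-IL5 count for stage II against I was 5. Leaving out 1 library gave 0 to 2 calls at stage I, 0 to 1 at II, 1 to 3 at III, 0 to 2 at IV and 7 to 9 for the mean over stages. Under anti-IL5 it gave 2 to 8 for stage II against I, 9 to 17 for III against II, 10 to 14 for IV against III and 20 to 25 for IV against I. In isotype libraries it gave 1 to 9, 7 to 19, 11 to 15 and 24 to 28. The differences between stages and the interaction stayed at 0 to 0 in these fits and in the other settings run. In the mean over stages, calls were not all in the lower direction in every such fit. Leaving out either isotype stage II library brought in a call in the higher direction. Without stage II (an alternative added after seeing the data) the mean over stages called 7 members, with Pdk1 lost at log2 -0.54.

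With gene-count totals, 2 called members reversed in stage IV against I under anti-IL5: Pfkp to -0.0010 on the log2 scale by edgeR and -0.0010 as a ratio of mean CPM, and Ldha to -0.0869 and -0.0865; the medians of all genes moved by -0.42 there. The replicate numbers share only a number. Deviations correlated over 0.1 in 2 of 11 pairs between antibodies, 6 of 15 between stages under anti-IL5 and 10 of 15 in isotype libraries. The 2 pairs between antibodies were those of stage II. With 2 libraries a group the deviations mirror each other, so both pairs hold the same correlation (0.338). Between antibodies at stages I, III and IV the correlations were 0.0127 to 0.0838. Still, 8 of 9 anti-IL5 libraries of these stages correlated best with the isotype library of their own number. That is a hint from the data and not from the design. The replicate block changed the count of calls over 1.5 times only at stage IV (3). Stage II has 2 libraries a group, and members under about 10 CPM, such as Aldoc under anti-IL5, Pfkm, Ldhb and Rpia, rest on few counts.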

Other observations

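A gene of glycogen breakdown and a gene of the NADPH oxidase were higher under anti-IL5. Pygl, the phosphorylase that releases glucose units from glycogen, had 341 ± 3.56 CPM at stage I under anti-IL5 against 213 ± 17.7 CPM in isotype libraries (SD, n = 3; log2 0.68 ± 0.15, edgeR adjusted p = 0.00887), and at stage IV 1349.6 ± 66.8 CPM under anti-IL5 against 1674 ± 119 CPM, a difference that was not called. Cybb, the catalytic subunit of the oxidase, averaged 522, 1115, 2713 and 2524 CPM at stages I to IV under anti-IL5 and 309.5, 654, 2087 and 1677 CPM in isotype libraries (mean over stages log2 0.62 ± 0.10, edgeR adjusted p = 0.000156).

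Of 16 tested regulators of glucose metabolism, 1 was higher and 2 were lower in the mean over stages, or 18.8%, against 18.9% of all tested genes. Myc, which drives growth and many glycolytic genes, had 3.23 ± 1.66 CPM at stage III under anti-IL5 against 19.0 ± 4.70 CPM in isotype libraries (SD, n = 3; log2 -2.56 ± 0.40, edgeR adjusted p = 0.000594). Trp53 was lower (log2 -0.30 ± 0.08, edgeR adjusted p = 0.00773) and Txnip, an inhibitor of glucose uptake, higher (log2 0.75 ± 0.14, edgeR adjusted p = 0.000542). Hif1a was called at no stage and averaged 69.6, 51.0, 105 and 220.4 CPM at stages I to IV under anti-IL5 and 81.5, 56.6, 102 and 325 CPM in isotype libraries.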
